A study of Homo sapiens with 12 samples.

Results

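The balance between an epithelial and a mesenchymal state is commonly read from a small panel of genes, and 10 such genes were followed here in HCT116 cells with and without MTHFD2. The genes were chosen by name, though with earlier results of these data known. CDH1, EPCAM, CLDN1 and ESRP1 stood for the epithelial state, and VIM, CDH2, FN1 and TGFBI for the mesenchymal state. ZEB1 and SNAI2 were included as transcription factors. All 10 were found among the 60648 genes counted, and 8 of them were among the 18289 genes with enough reads to be tested. CDH2 and TGFBI did not pass that filter.

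HCT116 is an established human colon carcinoma cell line. MTHFD2 is a mitochondrial enzyme of folate metabolism that helps to supply one-carbon units for nucleotide synthesis. The study sequenced poly-A selected RNA from 12 libraries in 4 groups of 3 biological replicates, namely wild-type cells and MTHFD2 knock-out cells harvested early (initial) or late (final). The knock-out cells were made with CRISPR-Cas9 and came from 1 isolated clone. The initial harvest followed directly on the making of the knock-out, and the final harvest came after 2 months in culture. All cells were grown in the same serum-containing medium. The loss of MTHFD2 and the isolation of 1 clone cannot be told apart in this design.

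Epithelial cells are held together by adherens and tight junctions, and mesenchymal cells are looser, more motile and rich in matrix and intermediate filaments of the vimentin type. In an epithelial-mesenchymal transition, ZEB, SNAI and TWIST factors repress genes such as CDH1, and transforming growth factor beta (TGF-beta) is a classical inducer. Many carcinoma cells show only part of this programme. HCT116 cells are epithelial, and their type II TGF-beta receptor gene, TGFBR2, carries the frameshift mutations typical of colon cancers with microsatellite instability.

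Each library held between 38597809 and 40017561 counts assigned to genes, so depth was nearly even. MTHFD2 itself had a mean of 413 ± 41.2 and 355 ± 32.4 CPM (counts scaled to library size, SD, n = 3) in initial and final wild-type cells, and 137 ± 9.10 and 137 ± 16.7 CPM in the knock-out cells, so its transcript was reduced in all 6 knock-out libraries but still counted. Of 9 markers of colon epithelial cells, 7 passed the filter (VIL1 and LGALS4 did not), among them CDH1 and EPCAM themselves. Their summed level was 2610 to 3220 CPM in wild-type and 2450 to 2690 CPM in knock-out libraries at the initial harvest. Later, at the final harvest, it was 3050 to 3190 CPM against 2200 to 2570 CPM, so knock-out libraries were lower without overlap, and the part of this shift in the results was not tested. Of 9 fibroblast markers 3 passed (COL1A1, COL3A1 and PDGFRB), and DCN and LUM had no count in any library. The fibroblast sum was 56.9 to 78.8 CPM in wild-type and 37.6 to 59.3 CPM in knock-out libraries. Most of it was COL1A1, with means of 61.7 and 68.5 CPM in initial and final wild-type and 40.6 and 49.3 CPM in knock-out cells. COL3A1 had lower means in knock-out cells too, 0.211 and 0.354 CPM against 1.32 and 0.582 CPM in wild-type cells. Its difference at the final harvest did not pass (log2 fold change -0.71, adjusted p = 0.265 by edgeR's quasi-likelihood test). PDGFRB was higher in knock-out cells, with means of 1.35 and 1.51 CPM against 0.692 and 0.711 CPM. Blood cell markers were near 0, with CD3E at 0 in all libraries, and 4 of 6 endothelial markers passed with sums of 2.06 to 3.81 CPM. The blood sum, from CD14 and LYZ, was 0.635 to 1.24 CPM in wild-type and 1.31 to 2.37 CPM in knock-out libraries, and its part in the results was not tested.

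Per kilobase of the deposited gene length, EPCAM, ESRP1 and CDH1 stood far above the mesenchymal genes in every group, and CLDN1 did not. That length, 2430 bases for EPCAM, 5176 for VIM and 17216 for FN1, need not be that of the transcripts present. Ratios between genes on this scale are therefore approximate. In initial wild-type cells EPCAM led with 167 ± 16.0 CPM per kb (SD, n = 3), followed by ESRP1 at 44.6 ± 0.612 and CDH1 at 38.8 ± 7.08, the last pair differing by less than the spread of CDH1. FN1 came next at 3.13 ± 0.414 CPM per kb, then VIM at 0.916 ± 0.0987 and ZEB1 at 0.603 ± 0.106. The bottom of the order was CLDN1 at 0.0840 ± 0.00971, SNAI2 at 0.0628 ± 0.00369, TGFBI at 0.0257 ± 0.0113 and CDH2 at 0.0038 ± 0.00434 CPM per kb. In initial knock-out cells the order of the top 3 was the same, but VIM at 2.11 ± 0.278 CPM per kb stood above FN1 at 1.07 ± 0.129. The same exchange of VIM and FN1 was present at the final harvest, at 1.53 ± 0.0729 and 1.08 ± 0.0864 CPM per kb. CLDN1 stayed among the low genes in all 4 groups.

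**Figure D1:**
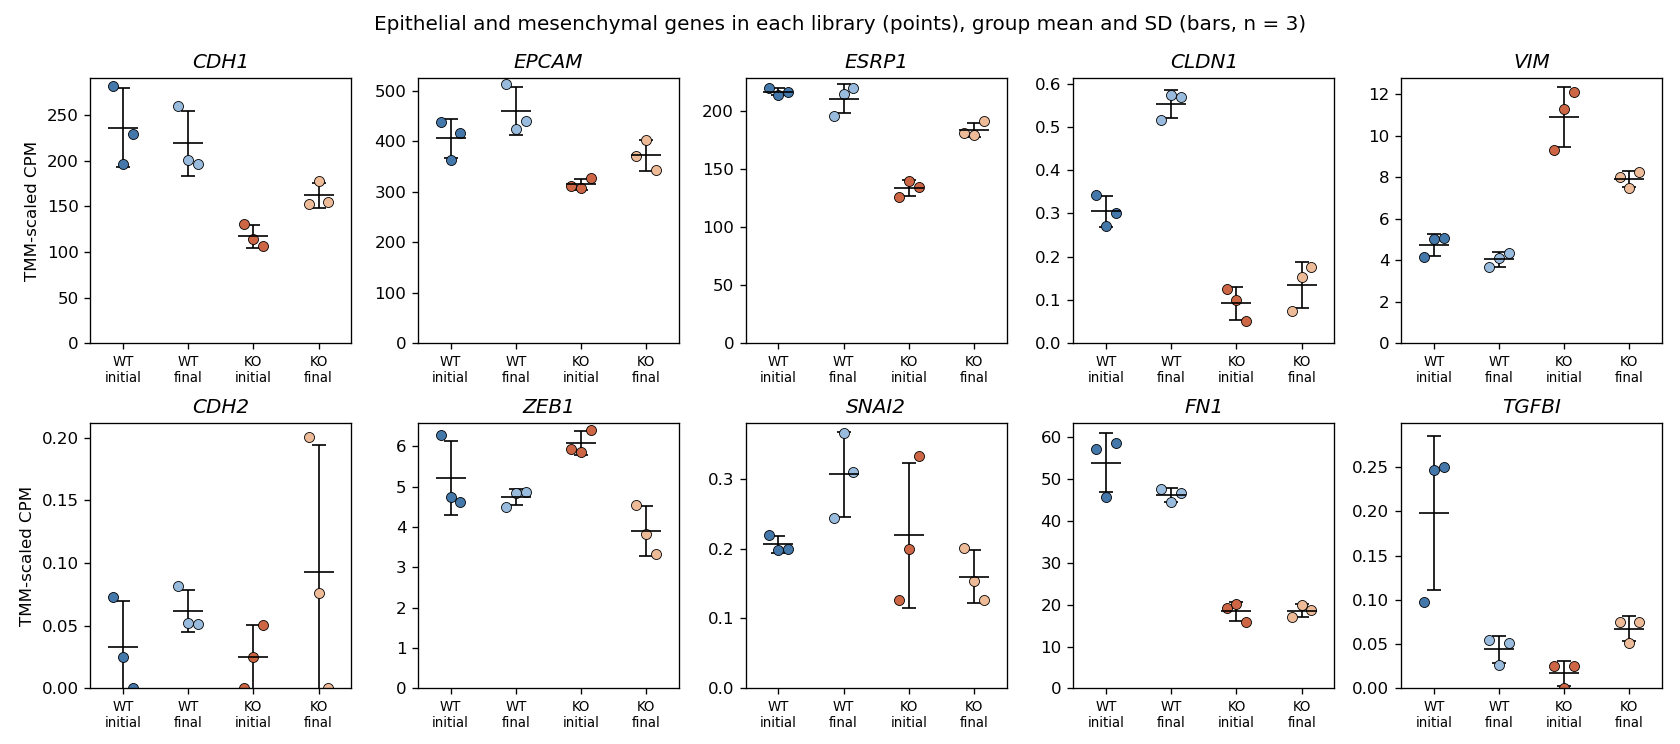
CPM of the 10 genes in each of the 12 libraries, 1 point per library, with bars for the group mean and SD (n = 3). CDH1, ESRP1, CLDN1 and FN1 lie lower in all 6 knock-out than in all 6 wild-type libraries, VIM lies higher, and CDH2, TGFBI and SNAI2 rest on few counts.

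Between knock-out and wild type, VIM was higher and CDH1, EPCAM and FN1 were lower at both harvests, and ESRP1 was lower at the initial harvest. CLDN1 reached the test only through its wild-type libraries, where it is high, so it is left out of the counts that follow and described by its reads. At the initial harvest 5 of the other 7 genes tested passed an adjusted p of 0.05, against 19.9% of all genes tested. The 1 higher gene was VIM, a direction called for 8.55% of all genes, and the 4 lower genes compare with 11.3%. At the final harvest 4 of 7 passed, against 18.5% of all genes (8.38% higher, 10.2% lower). The 3 knock-out and 3 wild-type libraries did not overlap for 5 of 7 genes at the initial harvest, against 35.5% of all genes tested. At the final harvest they did not overlap for 6 of 7, all but ZEB1, against 33.1% of all genes. SNAI2 is among those 6 on few reads, with 9, 14 and 12 counts in wild-type and 8, 6 and 5 in knock-out libraries. Within that harvest only wild-type libraries reached the level of the filter for SNAI2, so its gap is a description and adds no support. The median log2 fold change over the 7 genes was -0.36 initially and -0.31 finally, where the median of all genes tested was 0.0 at both. Across all 6 knock-out and 6 wild-type libraries the ranges of CDH1, ESRP1, VIM and FN1 did not overlap, which is 4 of 7, and 12.8% of all genes tested had ranges that did not overlap. RNA from a culture cannot tell fewer cells of a kind from less RNA per cell, which holds for every value here.

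**Figure D2:**
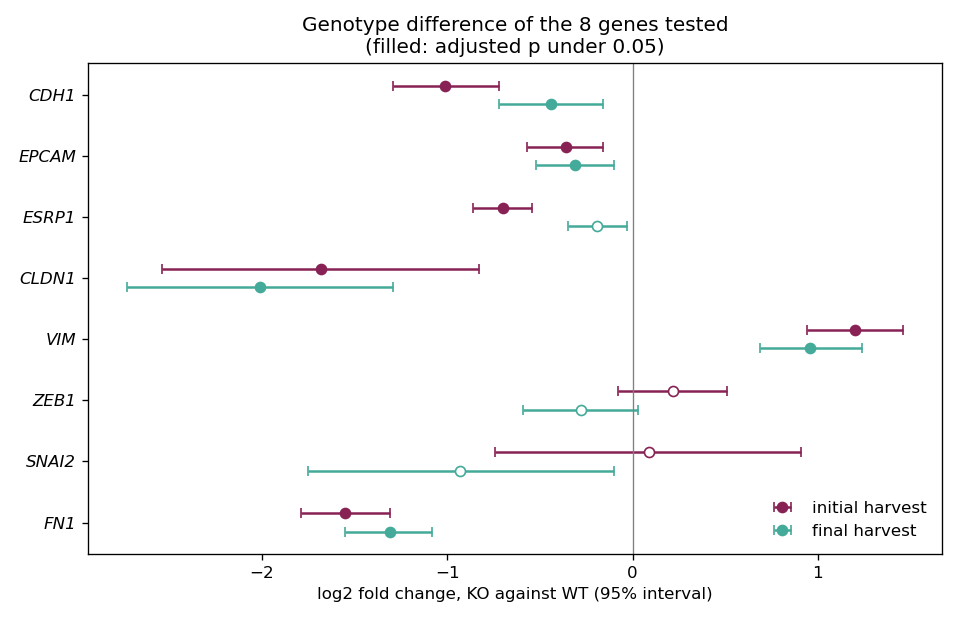
Log2 fold change of knock-out against wild type for the 8 genes tested, at the initial and the final harvest, with 95% intervals of edgeR's quasi-likelihood fit; filled points passed an adjusted p of 0.05. CDH1, EPCAM, CLDN1 and FN1 lie below 0 and VIM above 0 at both harvests, and ZEB1 and SNAI2 have open points at both. CLDN1 is drawn for its size, having reached the test only through wild-type libraries.

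CDH1 encodes E-cadherin, the adhesion molecule of adherens junctions (chromosome 16, 68737292 to 68835537, plus strand, GRCh38). Wild-type libraries held 281, 196 and 229 CPM at the initial and 260, 201 and 196 CPM at the final harvest. Knock-out libraries held 131, 114 and 107 CPM at the initial and 153, 178 and 155 CPM at the final harvest. Every knock-out library thus lay below every wild-type library, and the 3 initial knock-out libraries were the lowest of all. CDH1 fell by 1.01 on the log2 scale at the initial harvest (SE 0.134, adjusted p = 4.77e-05 by edgeR's quasi-likelihood test). Averaged over both harvests, the knock-out level was 60.6% of the wild-type level. At the final harvest it fell by 0.44 (SE 0.133, adjusted p = 0.0291). That final call was lost with upper-quartile scaling (adjusted p = 0.0567) and without wild-type final replicate 1 (log2 fold change -0.29, adjusted p = 0.135), knock-out final replicate 1 (0.103) or knock-out final replicate 3 (0.0884), and over its alternatives the adjusted p ran from 0.000161 to 0.135. The 10 nearest tested genes on chromosome 16 had median log2 fold changes of 0.09 initially and -0.07 finally.

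EPCAM is the epithelial cell adhesion molecule, a surface protein of simple epithelia and many carcinomas (chromosome 2, 47345158 to 47387601). It was the most abundant of the 10 genes, with 438, 363 and 416 CPM in initial and 514, 425 and 441 CPM in final wild-type cells. Knock-out cells held 311, 307 and 328 CPM at the initial and 370, 403 and 343 CPM at the final harvest. The groups did not overlap within either harvest, but the final knock-out range reached above the lowest initial wild-type library. EPCAM fell by 0.36 (SE 0.0984, adjusted p = 0.0151) at the initial and by 0.31 (SE 0.0983, adjusted p = 0.0390) at the final harvest, the smallest of the differences that passed. The initial call was lost without wild-type initial replicate 1 or 3 or knock-out initial replicate 1 or 2 (adjusted p 0.0525 to 0.0672). The final call was lost with upper-quartile scaling, with a fit of the final libraries alone, and without any of 8 single libraries (adjusted p 0.0526 to 0.146, fold change -0.22 to -0.34). The average over both harvests, -0.34 (SE 0.0695, adjusted p = 0.00152), kept its call under every alternative run. Its 10 nearest tested neighbours had medians of -0.18 and -0.12 at the initial and final harvest, with 8 of 10 below 0 at each.

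CLDN1 encodes claudin-1, a strand-forming protein of tight junctions (chromosome 3, 190305707 to 190322446, minus strand). Its level was very low: wild-type libraries held 14, 11 and 12 counts at the initial and 19, 22 and 22 counts at the final harvest. Knock-out libraries held 5, 4 and 2 counts, then 3, 6 and 7. Every knock-out library had fewer counts than every wild-type library. The gene passed the filter only through its wild-type libraries, so a lower level in knock-out cells was the outcome that could be tested, and its log2 fold changes of -1.68 (SE 0.404) and -2.01 (SE 0.340) are given as a description. From the summed counts, 37 against 11 and 63 against 16, the wild-type to knock-out ratio was 3.29 (95% exact interval 1.64 to 7.15) and 4.11 (2.34 to 7.62). Those intervals cover counting error only, and reads without molecular identifiers are not independent molecules.

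ESRP1 is an RNA-binding protein that directs epithelial patterns of splicing (chromosome 8, 94641074 to 94707466). Wild-type libraries were tightly grouped, at 220, 214 and 217 CPM initially and 196, 215 and 220 CPM finally. Knock-out libraries held 126, 140 and 135 CPM at the initial and 181, 180 and 192 CPM at the final harvest. The initial knock-out libraries stood apart from the other 9, and the final knock-out libraries came close to the wild-type range without touching it. Initially ESRP1 fell by 0.70 (SE 0.0759, adjusted p = 5.1e-06). Its log2 fold change at the final harvest was -0.19 (SE 0.0755, adjusted p = 0.0941). DESeq2 (adjusted p = 0.0475) and the fit without wild-type final replicate 1 (0.0455) did call it at the final harvest, within a range of 0.0455 to 0.273. The 10 nearest tested genes had medians of 0.09 and 0.01.

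VIM encodes vimentin, the intermediate filament of mesenchymal cells (chromosome 10, 17228241 to 17237593). Wild-type libraries held 4.15, 5.02 and 5.06 CPM at the initial and 3.66, 4.14 and 4.35 CPM at the final harvest. Knock-out libraries held 9.31, 11.3 and 12.1 CPM at the initial and 8.0, 7.50 and 8.24 CPM at the final harvest. All 6 knock-out libraries lay above all 6 wild-type libraries. VIM rose by 1.20 on the log2 scale (SE 0.124, adjusted p = 3.42e-06) at the initial and by 0.96 (SE 0.128, adjusted p = 4.66e-05) at the final harvest, and both calls held in every alternative run. In all 12 libraries CDH1 nevertheless remained the more abundant of the pair per kilobase of the deposited gene length. On that approximate scale CDH1 exceeded VIM by 33.3 to 60.5 times in the wild-type libraries and by 7.53 to 20.2 times in the knock-out libraries. VIM-AS1, transcribed from the opposite strand across VIM, also rose at the initial harvest (1.21, SE 0.216, adjusted p = 0.000767), and at the final harvest had a log2 fold change of 0.43 (adjusted p = 0.175). The sources used here do not say whether counting used strand, so reads of VIM and VIM-AS1 may not be told apart, although VIM-AS1 averaged 0.850 to 1.96 CPM per group. The 10 nearest tested genes of VIM had medians of 0.06 and 0.09.

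FN1 encodes fibronectin, a matrix glycoprotein that mesenchymal cells and many carcinoma cells secrete (chromosome 2, 215360440 to 215436073, minus strand). Wild-type libraries held 57.2, 45.7 and 58.7 CPM at the initial and 47.5, 44.4 and 46.6 CPM at the final harvest. Knock-out libraries held 19.1, 20.2 and 15.9 CPM at the initial and 17.1, 20.0 and 18.7 CPM at the final harvest. The groups were far apart, with the highest knock-out library below the lowest wild-type library by more than the range of either knock-out group. FN1 fell by 1.55 (SE 0.111, adjusted p = 5.89e-08) and by 1.31 (SE 0.111, adjusted p = 2.89e-07), to 37.1% of the wild-type level over both harvests, with the call kept in every alternative run. The 10 nearest tested genes had medians of 0.01 and 0.03. The fibroblast marker sum given above, mostly COL1A1, moved in the same direction as FN1, while the fibroblast marker PDGFRB moved the other way. The part of these markers in this result was not tested.

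The promoters of VIM and FN1 are shown because these are the mesenchymal genes that passed the test, in opposite directions. Both windows run from 250 bases before to 50 bases after the RefSeq start on GRCh38.p14, and the data do not measure activity at either. Of the 10 genes, 6 had an entry in the RefSeq promoter table. Capitals mark matches to TATAA or its reverse complement TTATA, and in FN1 also the cyclic AMP response element TGACGTCA, and motifs were searched on both strands. VIM lies on the plus strand at chr10:17227991-17228290, with the match 217 bases before the start. FN1 lies on the minus strand at chr2:215436019-215436318, with TGACGTCA at 183 and TATAA at 28 bases before the start.
VIM promoter: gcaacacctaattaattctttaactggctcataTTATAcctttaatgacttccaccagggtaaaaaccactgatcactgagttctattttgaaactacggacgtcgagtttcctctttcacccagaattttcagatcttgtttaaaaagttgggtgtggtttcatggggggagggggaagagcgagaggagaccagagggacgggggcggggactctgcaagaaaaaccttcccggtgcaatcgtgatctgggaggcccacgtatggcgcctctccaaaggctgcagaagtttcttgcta
FN1 promoter: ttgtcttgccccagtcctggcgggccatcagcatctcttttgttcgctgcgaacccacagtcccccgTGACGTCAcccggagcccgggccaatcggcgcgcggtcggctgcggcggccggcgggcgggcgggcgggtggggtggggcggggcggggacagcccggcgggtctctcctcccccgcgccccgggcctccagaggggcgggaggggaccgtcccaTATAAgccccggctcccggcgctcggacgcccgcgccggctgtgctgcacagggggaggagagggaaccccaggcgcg
Of 27305 promoter windows of this length, 21.1% held TATAA or TTATA and 1.98% held TGACGTCA. The motif TGANTCA, bound by AP-1 factors, and the E-box CACCTG, bound by ZEB and SNAI factors, were searched too and had no match in these 2 windows, where 7.76% and 20.6% of all windows had one.

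CDH2 encodes N-cadherin, which replaces E-cadherin in classical cadherin switching (chromosome 18, 27932879 to 28177946, minus strand). Its counts were 3, 1 and 0 in initial and 3, 2 and 2 in final wild-type cells, and 0, 1 and 2 in initial and 8, 3 and 0 in final knock-out cells. These counts overlapped throughout and stood at the limit of detection, so no difference was detectable at this depth. An exact permutation test over both harvests (two-sided, 400 relabellings, smallest possible p 0.005) gave p = 0.94. The summed counts, 4 against 3 and 7 against 11, gave knock-out to wild-type ratios of 0.767 (0.112 to 4.53) and 1.51 (0.533 to 4.58).

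TGFBI encodes a secreted matrix protein named for its induction by TGF-beta (chromosome 5, 136028988 to 136063818). Initial wild-type libraries held 4, 10 and 10 counts, final wild-type libraries 2, 1 and 2, initial knock-out libraries 1, 0 and 1, and final knock-out libraries 3, 2 and 3. The initial wild-type libraries were thus the only ones above 3 counts. By summed counts, 24 against 2, the initial knock-out to wild-type ratio was 0.0852 (95% exact interval 0.00976 to 0.343), whereas at the final harvest, 5 against 8, it was 1.53 (0.443 to 5.96). With the filter on low counts removed, edgeR's quasi-likelihood test gave an adjusted p of 0.00168 initially and 0.811 finally. The exact permutation test over both harvests gave p = 0.11, two-sided.

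ZEB1 is a zinc-finger repressor of CDH1 and other epithelial genes (chromosome 10, 31318495 to 31529814). Wild-type libraries held 6.28, 4.74 and 4.63 CPM at the initial and 4.50, 4.85 and 4.86 CPM at the final harvest. Knock-out libraries held 5.93, 5.86 and 6.41 CPM at the initial and 4.55, 3.83 and 3.32 CPM at the final harvest. The genotypes overlapped at both harvests. The log2 fold change was 0.22 (95% interval -0.08 to 0.51, adjusted p = 0.309) at the initial and -0.28 (-0.59 to 0.03, adjusted p = 0.209) at the final harvest, so neither direction was called, and both intervals exclude a change of 1 log2 unit. ZEB1-AS1, which overlaps ZEB1 on the opposite strand, averaged 1.99 to 2.49 CPM per group and was not called in any comparison.

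ZEB1 and ZEB2 are the best known targets of the miR-200 family. Its members miR-200c and miR-141 are cut from the transcript MIR200CHG, which this RNA-seq can count, while the mature miRNAs are too short to be seen in it. They are shown as RefSeq gives them, with the seed, bases 2 to 8, in capitals, since the seeds differ between these relatives.
hsa-miR-200c-3p: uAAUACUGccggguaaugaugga
hsa-miR-141-3p: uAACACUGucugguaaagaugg
MIR200CHG averaged 0.990 ± 0.391 and 1.07 ± 0.151 CPM (SD, n = 3) in wild-type cells and 1.31 ± 0.402 and 1.53 ± 0.261 CPM in knock-out cells at the initial and final harvest. Its average log2 fold change was 0.46 (SE 0.193, adjusted p = 0.0831), which did not pass.

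SNAI2, also called Slug, is a zinc-finger repressor of the SNAI family (chromosome 8, 48917598 to 48921740, minus strand). Wild-type libraries held 9, 8 and 8 counts, then 9, 14 and 12. Knock-out libraries held 5, 8 and 13 counts, then 8, 6 and 5. The genotypes overlapped at the initial harvest, and at the final harvest every knock-out library lay below every wild-type library. Among the final libraries only wild-type ones reached the level of the filter, so that gap is given as a description. The log2 fold change was 0.09 (95% interval -0.74 to 0.91, adjusted p = 0.911) at the initial and -0.93 (-1.75 to -0.10, adjusted p = 0.115) at the final harvest. Neither difference passed, and the wide intervals reflect the low counts.

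Over 2 months of culture, none of the 7 genes other than CLDN1 passed in wild-type cells by edgeR's quasi-likelihood test, where 6.47% of all genes did (3.05% higher, 3.42% lower), and none passed in any alternative run. None of the 7 had an unadjusted p under 0.05 there. CLDN1, by its summed counts of 37 and 63, had a final to initial ratio of 1.81 (95% exact interval 1.19 to 2.80). In knock-out cells 2 of 7 passed, where 1.48% of all genes did (0.837% higher, 0.64% lower). The initial and final knock-out libraries did not overlap for CDH1, EPCAM, ESRP1, VIM and ZEB1, 5 of 7 genes, against 23.2% of all genes, and the wild-type ones did not for SNAI2, 1 of 7, against 22.2%. For SNAI2 the gap appeared only after scaling. Its raw counts, 9, 8 and 8 in initial and 9, 14 and 12 in final wild-type libraries, tied at 9. ESRP1 rose by 0.47 (SE 0.0757, adjusted p = 0.00365), and ZEB1 fell by 0.64 (SE 0.142, adjusted p = 0.0329). The ZEB1 call was lost without any of 6 single libraries (adjusted p 0.0550 to 0.158): wild-type final replicate 2, each initial knock-out replicate, and knock-out final replicates 2 and 3. CDH1 had a log2 fold change of 0.46 (adjusted p = 0.105) and VIM of -0.46 (adjusted p = 0.0729) in knock-out cells. Both passed with DESeq2, with no filter, with the knock-out libraries alone, and without wild-type initial replicate 1 or 2, over adjusted p ranges of 0.0011 to 0.331 for CDH1 and 0.0207 to 0.267 for VIM.

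The test of whether the genotype difference itself changed with time called 1 of these 7 genes, against 1.28% of all genes (0.809% higher, 0.476% lower). ESRP1 had a final minus initial difference of 0.51 (SE 0.107, adjusted p = 0.0237), meaning that its deficit in knock-out cells was smaller at the final harvest. That call was lost without wild-type initial replicate 3, wild-type final replicate 2, any initial knock-out replicate, or knock-out final replicate 1 or 3 (adjusted p 0.0509 to 0.0821), while the value stayed between 0.47 and 0.55. CDH1 had a value of 0.57 (SE 0.187, adjusted p = 0.193) and ZEB1 of -0.50 (SE 0.201, adjusted p = 0.311), neither of which passed. For CDH1 the change between harvests is therefore not shown to differ between genotypes in this fit, although it was called with no filter on low counts (adjusted p = 0.00903, in a range of 0.00903 to 0.407).

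The wider programme was read from 6 gene lists that leave out the 10 genes and were also chosen with earlier results known. As with CLDN1, some list genes had few reads in 1 genotype and reached the test through the other. For these the filter left only 1 direction to be called, such as KRT20, GRHL3, FOXQ1 and BMP2 among the lower and TNC among the higher. They stay in the tallies below. Of 59 tested genes of epithelial junctions and polarity, 31 fell and 4 rose in the average of both harvests. That is 59.3% called, against 30.1% of all genes (16.1% lower and 14% higher, the background for every list below), with a median log2 fold change of -0.22 against 0.0. DSP, the desmosomal plaque protein desmoplakin, went from 489 ± 34.8 to 224 ± 14.2 CPM initially and from 554 ± 25.8 to 259 ± 16.6 CPM finally (average -1.11, SE 0.0622, adjusted p = 8.82e-10). PRSS8, the membrane protease prostasin, fell by 0.75 (SE 0.0710, adjusted p = 5.13e-07). The genes that rose did so by little: NECTIN1, a junctional adhesion molecule, by 0.28, and PKP3, a plakophilin, and EPS8L2, an actin-binding protein, by 0.21 each. PKP3 lost its call without any of 6 single libraries (adjusted p 0.0582 to 0.101). EPS8L2 lost it under the replicate block (0.0512) and without any of 8 libraries (0.0550 to 0.110). By harvest, 25 fell and 1 rose initially (44.1% called, against 19.9% of all genes), and 19 fell and 2 rose finally (35.6%, against 18.5%).

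Of 18 tested regulators of the epithelial state, 9 fell and 1 rose on average (55.6% called), with a median of -0.28. The grainyhead factors, which sustain epithelial junction genes, were among them. GRHL2 held 45.8 ± 1.03 and 42.0 ± 2.60 CPM in wild-type and 16.5 ± 0.560 and 29.1 ± 1.54 CPM in knock-out cells (average -1.0, SE 0.0561, adjusted p = 8.99e-10), and GRHL1 fell by 1.22 (SE 0.0756, adjusted p = 3.12e-09). RBM47, an RNA-binding protein, fell by 0.70 (SE 0.0728, adjusted p = 1.55e-06). ESRP2, the paralog of ESRP1, rose by 0.22 (SE 0.0554, adjusted p = 0.00585), opposite to ESRP1. In knock-out cells over time GRHL2 rose by 0.82 (SE 0.0803, adjusted p = 3.22e-05) and was called in all 19 alternatives. RBM47 (0.44, adjusted p = 0.0442) and ESRP2 (-0.33, adjusted p = 0.0499) were at the threshold. With the replicate number as a block neither was called (adjusted p 0.0535 and 0.0516), and over the 19 alternatives RBM47 lost its call in 9 (0.00593 to 0.197) and ESRP2 in 13 (0.00544 to 0.219).

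Of 15 tested transcription factors linked to epithelial-mesenchymal transition, 3 rose and 5 fell on average (53.3% called), with a median of -0.09. TWIST1, a basic helix-loop-helix inducer of the transition, rose by 0.92 (SE 0.129, adjusted p = 4.15e-05), from 1.67 ± 0.247 to 2.55 ± 0.470 CPM initially and from 1.07 ± 0.156 to 2.51 ± 0.236 CPM finally. KLF8, a Krüppel-like factor, rose by 0.48 (SE 0.124, adjusted p = 0.00768). FOXC1, a forkhead factor, fell by 2.94 (SE 0.0921, adjusted p = 7.08e-13), SOX4 by 1.91 (SE 0.0870, adjusted p = 8.04e-11), and HMGA2, a chromatin architectural protein, by 0.48 (SE 0.103, adjusted p = 0.00190). FOXC1, SOX4 and FOXQ1, like DSP above, lie on the short arm of chromosome 6 between 291630 and 27713352, a stretch whose genes were seen to be lower in knock-out cells in earlier results of these data. Those 4 are all the list genes tested in that stretch.

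The mesenchymal lists did not move in 1 direction. Of 34 tested adhesion and cytoskeleton genes 10 rose and 6 fell (47.1% called, median 0.02), and of 45 tested matrix genes 11 rose and 15 fell (57.8% called, median 0.0). NCAM1, a neural cell adhesion molecule, rose by 3.40 (SE 0.0918, adjusted p = 1.22e-13), from 12.8 ± 2.05 to 56.0 ± 5.01 CPM initially and from 4.06 ± 0.561 to 103 ± 8.10 CPM finally. S100A4, a calcium-binding protein of motile cells, rose by 1.17, and CAV1, the caveolar coat protein, rose by 0.86. NT5E, the surface ectonucleotidase CD73, fell by 0.90, and the integrin subunits ITGA2 and ITGB1 fell by 0.91 and 0.52. Among matrix genes SPARC, a collagen-binding glycoprotein, rose by 3.03 (SE 0.0829, adjusted p = 1.34e-13), and COL12A1 and SDC1 rose by 0.93 and 0.66. The laminin chain LAMB1 fell by 1.71 and the urokinase receptor PLAUR by 0.73. FN1 thus moved with LAMB1 and PLAUR, and VIM with S100A4 and SPARC, within lists whose medians were near that of all genes.

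Of 46 tested genes of the TGF-beta pathway, 12 rose and 15 fell on average (58.7% called, against 30.1% of all genes, median -0.13). Among ligands BMP4 rose by 1.37 (SE 0.0624, adjusted p = 7.11e-11), TGFB2 by 1.33 (SE 0.146, adjusted p = 3.19e-06) and GDF11 by 0.55. The inhibitory SMAD7 fell by 1.18 (SE 0.0967, adjusted p = 8.79e-08), LTBP1, which holds latent TGF-beta in the matrix, by 0.68, and TGFBR2 by 0.41 (SE 0.0526, adjusted p = 1.51e-05). BMP2, chosen after its values were seen, had no count in any knock-out library, against 4, 3 and 11 counts in initial and 28, 25 and 32 in final wild-type libraries. Against a floor of 3 counts per library it was at least 1.96-fold lower in initial and at least 9.80-fold lower in final knock-out cells. Setting BMP2 to that floor left the list's median at -0.13.

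**Figure D3:**
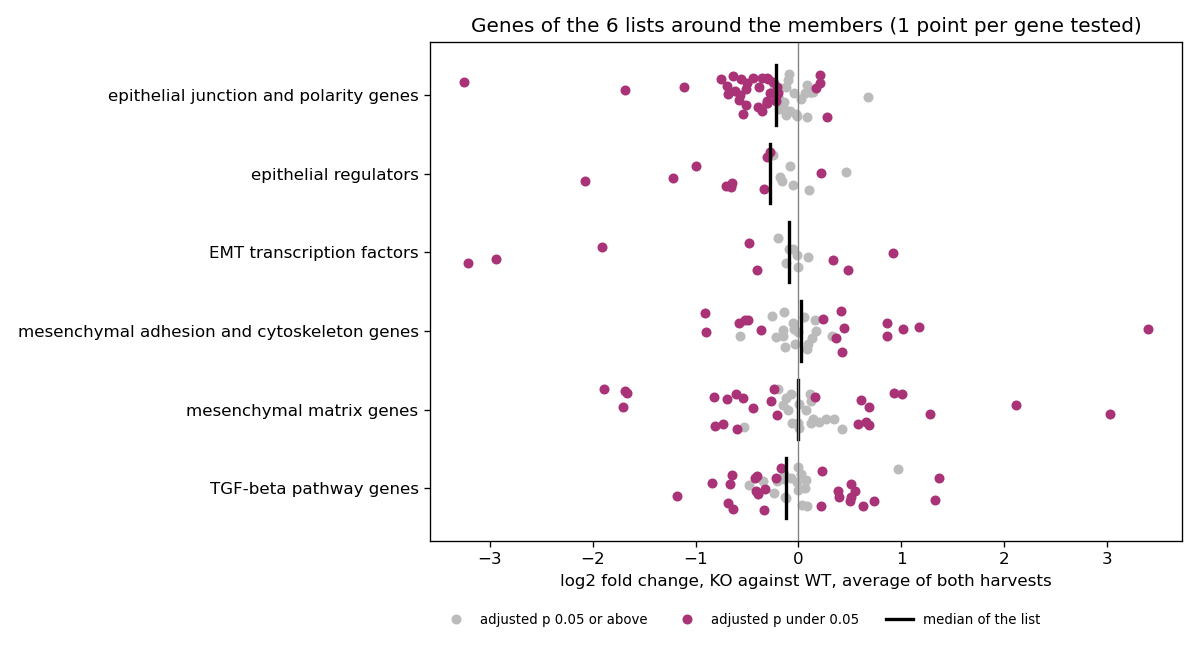
Log2 fold change of knock-out against wild type, averaged over both harvests, for each tested gene of the 6 lists; coloured points passed an adjusted p of 0.05 and black bars are list medians. BMP2, without counts in knock-out cells, is not drawn. The junction and regulator lists lie mostly below 0 (medians -0.22 and -0.28), and the mesenchymal lists spread to both sides (medians 0.02 and 0.0).

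For each of the 6 genes called in the average, the 2 most similar genes were found by the root mean square distance between log2 CPM profiles, each centred on its mean over the 12 libraries. CDH1 was nearest to COL4A6, a collagen IV chain (distance 0.0730), and to IGSF9, an immunoglobulin-type adhesion protein (0.106). EPCAM was nearest to PTPRK, a receptor phosphatase (0.0617), and WSB1 (0.0623). ESRP1 was nearest to CRYBG1 (0.0862) and RAB3IP (0.0878), both low in initial and nearer to wild type in final knock-out cells. CLDN1 was nearest to H3C6 (0.189) and C6orf141 (0.213), at larger distances. VIM was nearest to ZNF488 (0.145) and MIR1915HG (0.152), and FN1 to PBXIP1 (0.150) and GRHL1 (0.154). GRHL1, one of the regulators above, held 13.0 ± 0.978 and 12.9 ± 1.10 CPM in wild-type and 5.47 ± 0.450 and 5.63 ± 0.183 CPM in knock-out cells, much as FN1 differed.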

How the data were processed

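RNA-seq of 12 libraries of the HCT116 line was analysed from the table of raw counts per gene that the authors deposited. STAR, featureCounts, Subread and the hg38 build are named in the submitters' processing notes; versions, annotation release, use of strand and handling of multiply mapped reads are not given in the sources used here. Columns were matched to samples by their descriptions. Left out were 5 lines that hold 1 broken gene record. The genes and lists were chosen with earlier results of these data known.

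Counts were fitted over all genes with edgeR 4.0.16 (R 4.3.3): TMM scaling, the default expression filter by group, 1 mean per group over all 12 libraries, and the robust quasi-likelihood test, with Benjamini-Hochberg adjustment over 18289 genes and a threshold of 0.05. The 6 comparisons were knock-out against wild type at each harvest and averaged, final against initial in each genotype, and their interaction. Levels are TMM-scaled CPM, per kilobase of the deposited gene length where genes are compared. With 3 libraries against 3, an exact test on a single gene cannot give a p below 0.1; CDH2 and TGFBI were therefore tested by exact permutation within harvest, over both harvests, on log2(CPM + 0.1). Named are the 10 genes, MTHFD2, the 3 higher and 3 lower genes of each list with the smallest adjusted p in the average if their mean log2 CPM reached 1, and the 2 genes nearest in pattern to each gene called; HNF4A, EHF, CLDN2, KRT7, PARD3, FOXQ1, BMP2, MIR200CHG and the antisense genes were added after their values were seen. The series text calls the libraries biological replicates without naming separate cultures, so p-values measure only the spread between these samples, which may be technical. Of the genes this rule names, 3 are not reported here. The script was tested on simulated data. Alternatives were RLE and upper-quartile scaling, no filter, a stricter filter, the compared groups alone, a replicate block, DESeq2 1.42.0, and leaving out each library.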

Additional observations from a re-analysis of the deposited data

Results flagged for a closer look

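The genotype difference changed between the harvests for 7 of the genes chosen by the naming rule (others, picked after their values were seen, follow under the other observations), each by an interaction term in edgeR's quasi-likelihood fit with an adjusted p under 0.05, given here as the difference at the final minus that at the initial harvest on the log2 scale. ESRP1 had 0.51 (adjusted p = 0.0237). CRYBG1, one of the genes nearest to ESRP1 in pattern, had 0.56 (adjusted p = 0.0201), from 24.9 ± 0.550 CPM in initial to 36.5 ± 0.189 CPM in final knock-out cells (SD, n = 3). GRHL2 had 0.95 (adjusted p = 0.000231), as its level in knock-out cells rose between harvests. NCAM1 had 2.53 (adjusted p = 1.46e-06) and SPARC 0.82 (adjusted p = 0.0131), with wild-type means that were lower at the final harvest. In knock-out cells NCAM1 also rose between harvests, from 56.0 ± 5.01 to 103 ± 8.10 CPM (0.88, adjusted p = 0.000558 in the same fit). BMP4 had -0.73 (adjusted p = 0.00529), with a wild-type mean of 299 ± 25.2 CPM initially and 508 ± 11.6 CPM finally. SMAD7 had 1.27 (adjusted p = 0.00217), with a wild-type mean of 8.36 ± 0.285 CPM initially and 2.61 ± 0.137 CPM finally.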

How the results depend on the processing

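Of the gene-level values of the 8 genes tested under the alternatives, 837 kept direction and side of the threshold, 31 lost a call, 13 gained one and 9 changed sign, all 9 in differences that were not called. The member counts here include CLDN1. Members called in the final comparison numbered 3 with upper-quartile scaling, against 5. In knock-out cells over time 4 were called with no filter, with the compared groups alone and with DESeq2, against 2, and in the interaction 2 with no filter, against 1. Over all genes, the count for wild-type cells over time was 579 with the compared groups alone, against 1183. For knock-out cells over time it was 484 with no filter, 723 with the compared groups alone and 535 with DESeq2, against 270. For the interaction it was 423 with no filter and 450 with DESeq2, against 235. For every such count the cause was not tested. Leaving out 1 library at a time gave 5 to 6 members at the initial harvest, 3 to 5 at the final harvest, 1 to 4 in knock-out cells over time, 6 in the average and 0 to 1 in the interaction. Over all genes it gave 2407 to 4624 (initial), 2541 to 3865 (final), 624 to 1403 (wild-type cells over time), 91 to 471 (knock-out cells over time), 4622 to 6017 (average) and 124 to 444 (interaction). Where a sign changed, the values over all left-out libraries ran from -0.25 to 0.04 for CDH1 and from -0.22 to 0.02 for ZEB1 in wild-type cells over time, from -0.1 to 0.05 for ZEB1 in the average, from -0.01 to 0.16 for EPCAM in the interaction, from -0.33 to 0.36 for SNAI2 at the initial harvest, and from -0.08 to 0.09 for FN1 in knock-out cells over time. The signs changed without wild-type initial replicate 1 (CDH1 0.04, ZEB1 0.02 and 0.05, EPCAM -0.01), knock-out initial replicate 3 (SNAI2 -0.33, FN1 -0.08), knock-out final replicate 2 (EPCAM 0.0, FN1 -0.04) and knock-out final replicate 3 (ZEB1 0.02 in the average). Same-numbered libraries had deviation correlations of -0.358 to 0.238, with 6 of 18 above 0.1. Differently numbered libraries were not compared, so these values cannot decide whether the numbers mark pairs. A fit with the replicate number as a block called 6, 5, 0, 2, 6 and 1 members and 3539, 3298, 1123, 246, 5421 and 217 genes in the 6 comparisons. Other scalings moved the median of all genes by at most 0.03. Depth limits CLDN1, SNAI2, TGFBI and CDH2, each with fewer than 25 counts in every library.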

Other observations

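A set of 5 genes of the epithelial lists changed with culture in wild-type cells and had a genotype difference that differed between the harvests. HNF4A, a transcription factor of intestinal and hepatic epithelium, held 7.31 ± 1.35 CPM (SD, n = 3) in initial and 18.3 ± 1.32 CPM in final wild-type cells, against 11.2 ± 0.309 and 9.26 ± 0.668 CPM in knock-out cells. It was thus higher in knock-out cells at the initial harvest (0.62, SE 0.121, adjusted p = 0.00169 by edgeR's quasi-likelihood test) and lower at the final harvest (-0.98, SE 0.118, adjusted p = 1.64e-05), with an interaction of -1.60 (adjusted p = 9.79e-05). EHF, an ETS factor of epithelia, went the other way, from 141 ± 10.0 to 59.9 ± 0.918 CPM in wild-type cells, against 72.4 ± 3.01 and 74.5 ± 4.24 CPM in knock-out cells (interaction 1.28, adjusted p = 1.49e-05). CLDN2, a pore-forming claudin, held 8.55 ± 0.452 and 2.67 ± 0.207 CPM in wild-type cells and 3.23 ± 0.376 and 2.97 ± 0.269 CPM in knock-out cells (interaction 1.56, adjusted p = 0.000231). KRT7, a keratin of simple ductal epithelia, held 14.3 ± 2.19 and 3.48 ± 0.261 CPM in wild-type cells and 10.2 ± 0.313 and 5.66 ± 0.305 CPM in knock-out cells (interaction 1.19, adjusted p = 0.00120). PARD3, a polarity protein, held 65.1 ± 4.52 and 49.5 ± 2.29 CPM in wild-type cells and 59.9 ± 4.41 and 68.5 ± 5.4 CPM in knock-out cells (interaction 0.59, adjusted p = 0.0224). These 5 genes were picked after their values were seen.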
